A study of Homo sapiens with 6 samples.

Results

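Mitochondrial respiratory complexes II to V and their electron carrier cytochrome c are built largely from proteins encoded in the nucleus, and the genes described here are those nuclear genes. They were taken by symbol from a deposited table of 57820 genes: protein-coding genes named SDHA to SDHD, SDHAF, UQCR, COX with a number, or ATP5, together with CYC1 and CYCS, and without pseudogenes. The rule gave 65 genes, of which 8 belong to complex II, 10 to complex III, 1 is cytochrome c itself, 26 belong to complex IV and 20 to complex V. They were measured by bulk RNA sequencing in motor neurons differentiated from the established human embryonic stem cell line H9, labelled as wild type (WT). The 3 SMG libraries came from cells kept under simulated microgravity on a 2D clinostat, a device that keeps turning a culture so that gravity has no constant direction relative to the cells. The 3 NG libraries came from cells kept under normal gravity. Both groups descend from motor neuron progenitors grown with 0.01 µM retinoic acid (RA) and 0.1 µM SAG, an activator of Hedgehog signalling. How long the cells were turned is not stated in the labels, and both groups come from 1 cell line.

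Complex II (succinate dehydrogenase) oxidises succinate, an intermediate of the citric acid cycle, and passes the electrons to ubiquinone. Complex III passes them from ubiquinone to cytochrome c, and complex IV (cytochrome c oxidase) passes them from cytochrome c to oxygen, while complexes III and IV help to build the proton gradient that complex V (ATP synthase) spends to make ATP. Neurons draw most of their ATP from this route. Every subunit of complex II is encoded in the nucleus, whereas complexes III, IV and V each combine nuclear-encoded subunits with subunits encoded in the mitochondrial genome, and assembly factors insert haem, copper, iron-sulphur clusters and flavin.

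Total counts ranged from 16329907 to 22685870 per library. Levels below are CPM, the count of a gene relative to its library's total after TMM scaling, and log2 fold changes are SMG over NG, given ± SE, with p-values from edgeR's quasi-likelihood test adjusted over all 17803 genes that passed a filter on low counts. The labels do not say that libraries came from separate cultures, so these p-values measure only the spread between the libraries, which may be technical. Of 8 motor neuron markers, 7 were measurable. In SMG 5 of these were higher (71.4%, against 17.3% of all genes tested) and 0 lower. After removal of the length and GC trend described below, 3 were higher. Their summed level was 689.5 to 717 CPM in SMG libraries and 580.9 to 613.6 CPM in NG libraries. Of 6 general neuron markers, 2 were lower and 2 higher in SMG (1 and 4 with that trend removed). These summed to 3702 to 3765 CPM in SMG libraries and 3742 to 3872 CPM in NG libraries. Progenitor markers were present too, with 3 of 6 lower in SMG (50%, against 18.5% of all genes tested) and 0 higher. Their sum was 3099 to 3250 CPM in SMG libraries and 3205 to 3484 CPM in NG libraries. The pluripotency markers POU5F1 and NANOG, the astrocyte markers GFAP and AQP4 and the oligodendrocyte marker MOG stayed under 0.4 CPM in every library. What part these shifts in markers have in the differences below was not tested, and in bulk RNA fewer cells of a type cannot be told apart from less RNA per cell.

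The nuclear-encoded genes of complexes II to V were lower in SMG or did not pass the test, and 0 were higher. Of the 65 genes, 58 passed the filter on low counts. Of these 58, 30 were lower in SMG (51.7%), against 18.5% of all genes tested, and 0 were higher, against 17.3% of all genes tested. The differences were small. The median log2 fold change over the 58 was -0.17, a level in SMG at 0.887 of that in NG, beside a median of -0.00018 over all genes tested. The range ran from -0.38 for COX17, a copper chaperone of complex IV, to 0.16 for ATP5F1D, a subunit of the ATP synthase rotor that did not pass the test. The sign was negative for 55 members and positive for UQCR11, ATP5F1D and ATP5MF. In 31 of the 58 (53.4%) every SMG library lay below every NG library, against 23.6% of all genes tested, and in 0 every SMG library lay above. Members are more abundant than most genes. Where the mean level reached 10 CPM, 56.9% of the 51 members and 26.3% of all 10424 genes were lower in SMG, while 0 members and 22.7% of all were higher. Structural subunits had 25 lower of 43 tested and assembly or other factors 5 of 15, with medians of -0.19 and -0.14; this difference in share was not tested.

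**Figure D1:**
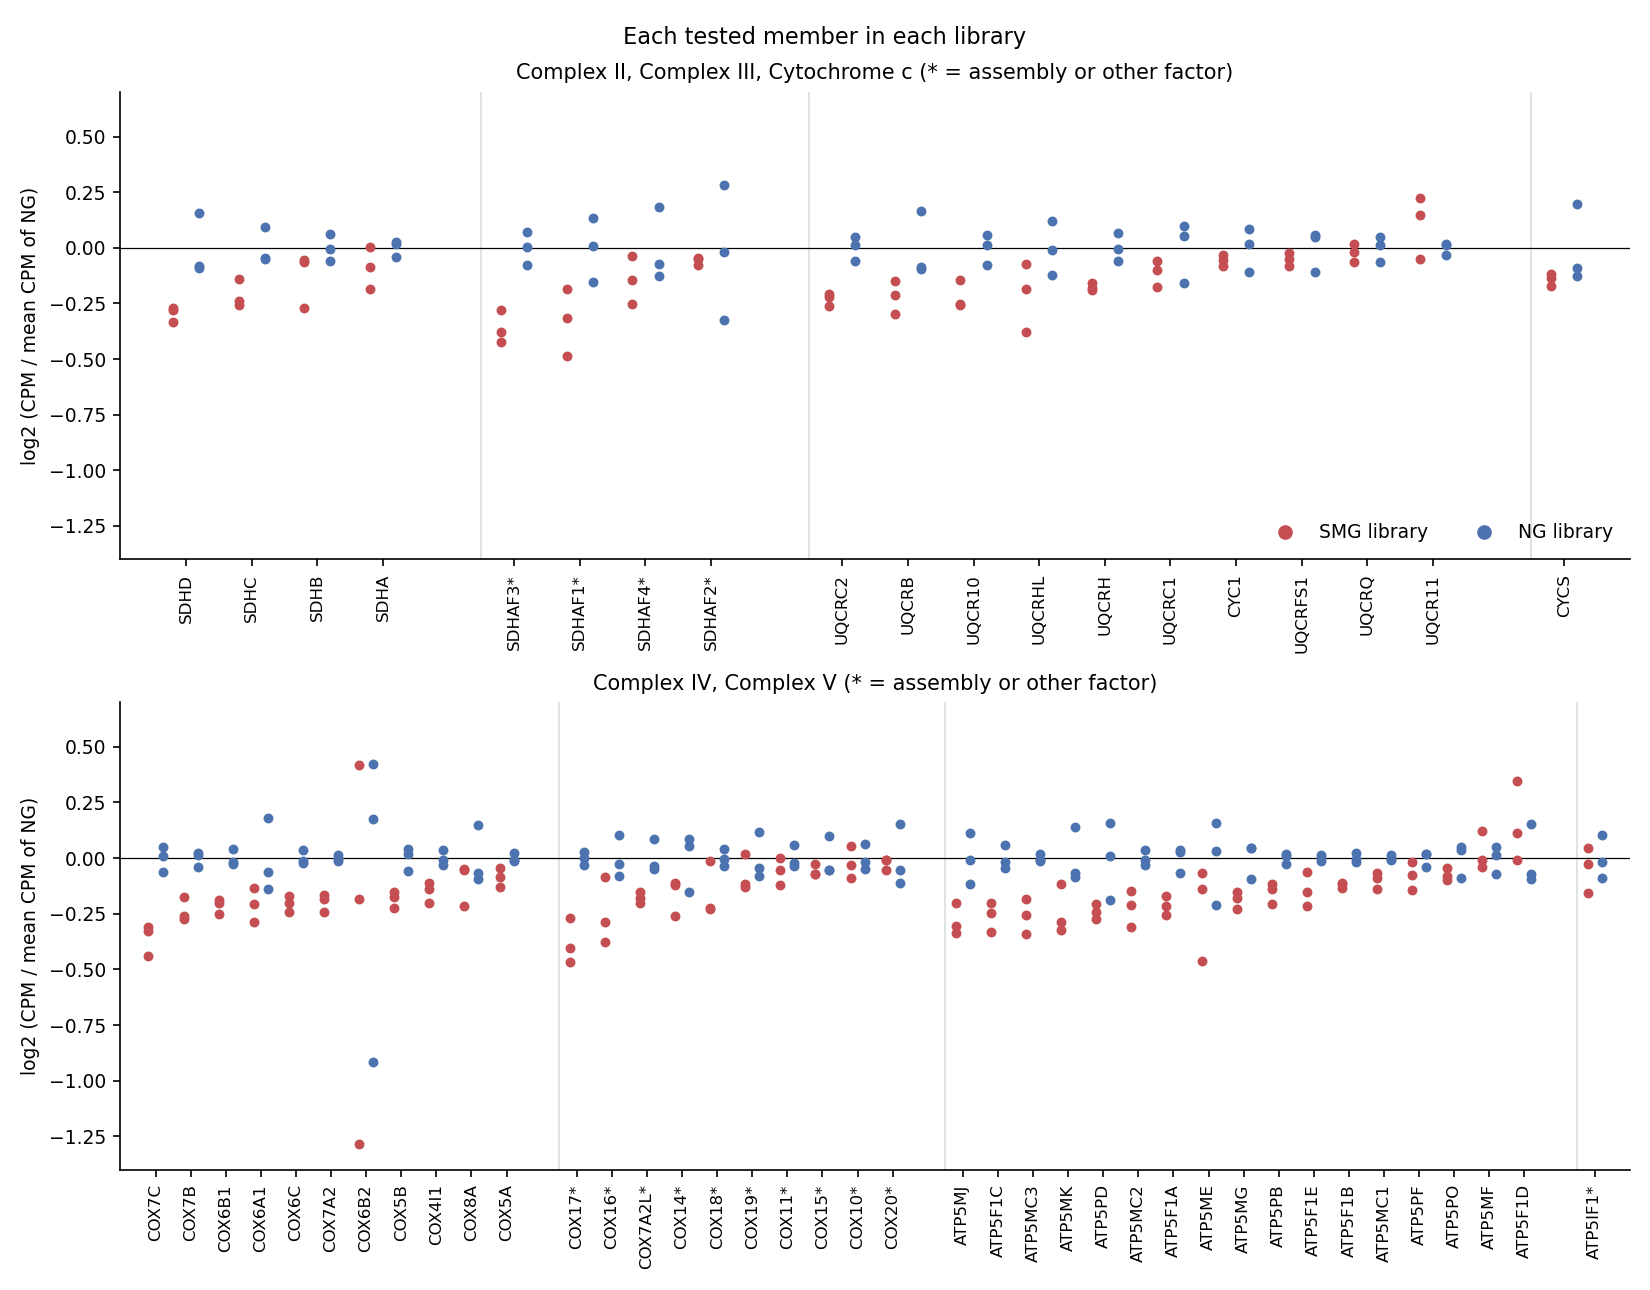
Each of the 58 tested genes in each library. The vertical axis is the log2 ratio of a library's CPM to the mean CPM of the 3 NG libraries, with the 3 SMG libraries (red) left of the 3 NG libraries (blue) for each gene; genes are grouped by complex and by subunit or factor and sorted by fold change. In 31 genes all red points lie below all blue points, and in 0 genes above them; COX6B2, near the limit of detection, has the widest spread.

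Promoters are shown for the gene with the lowest adjusted p in each complex, among those lower in SMG that had an entry, and for COX17, the gene with the largest fall. The sequences are the 250 bases before the transcription start in RefSeq (GRCh38.p14), 5′ to 3′ on the gene's strand. SDHAF3 lies at chr7:97117448-97117697 (+ strand), UQCRC2 at chr16:21953111-21953360 (+), COX7C at chr5:86617691-86617940 (+), ATP5F1C at chr10:7787927-7788176 (+) and COX17 at chr3:119677407-119677656 (- strand). Capitals mark matches, on either strand, to the cores GCGCNTGCG of NRF1, CCGGAAG of ETS factors such as GABPA, AAGATGG of YY1 and ACGTG of the hypoxia response. NRF1, GABPA and YY1 are known activators of nuclear genes for respiratory proteins.
SDHAF3: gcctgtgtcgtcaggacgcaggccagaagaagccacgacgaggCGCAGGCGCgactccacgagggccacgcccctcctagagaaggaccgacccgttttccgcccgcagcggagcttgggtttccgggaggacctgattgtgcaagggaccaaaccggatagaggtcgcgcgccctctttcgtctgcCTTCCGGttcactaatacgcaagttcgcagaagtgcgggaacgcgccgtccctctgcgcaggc
UQCRC2: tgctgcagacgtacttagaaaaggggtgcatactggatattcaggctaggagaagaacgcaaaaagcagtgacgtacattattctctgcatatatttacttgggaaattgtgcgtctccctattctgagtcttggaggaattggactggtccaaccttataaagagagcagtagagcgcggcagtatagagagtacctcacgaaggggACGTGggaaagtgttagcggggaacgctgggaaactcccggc
COX7C: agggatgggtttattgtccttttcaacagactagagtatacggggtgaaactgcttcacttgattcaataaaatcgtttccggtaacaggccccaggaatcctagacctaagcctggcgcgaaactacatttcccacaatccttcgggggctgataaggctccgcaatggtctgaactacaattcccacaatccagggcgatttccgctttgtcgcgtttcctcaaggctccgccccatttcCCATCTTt
ATP5F1C: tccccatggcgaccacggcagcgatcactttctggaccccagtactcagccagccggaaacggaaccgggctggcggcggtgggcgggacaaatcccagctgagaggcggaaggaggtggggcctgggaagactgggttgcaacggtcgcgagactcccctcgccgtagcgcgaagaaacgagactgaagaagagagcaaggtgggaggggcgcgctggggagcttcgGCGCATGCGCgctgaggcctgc
COX17: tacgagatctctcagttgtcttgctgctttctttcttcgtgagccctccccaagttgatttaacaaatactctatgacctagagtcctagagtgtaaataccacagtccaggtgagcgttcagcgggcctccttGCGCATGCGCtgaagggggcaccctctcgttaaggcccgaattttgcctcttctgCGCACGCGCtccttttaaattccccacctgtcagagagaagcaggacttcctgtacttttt

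SDHAF3 holds an NRF1 core from base -207 to -199 and an ETS core from -63 to -57, counted back from the start. COX7C has a YY1 core from -8 to -2, next to its start, and UQCRC2 has an ACGTG from -42 to -38. In ATP5F1C the NRF1 core is a palindrome whose matches on both strands overlap, from -22 to -13. COX17 has the same overlapping pair from -116 to -107 and a further NRF1 core from -61 to -53. In the window from 250 bases before to 50 after the start, the NRF1 core stood in 37.3% of the 51 members with a RefSeq promoter, and in 14.2% of the 11019 promoters of protein-coding genes tested. The ETS core stood in 39.2% of members and 18.2% of those promoters, the YY1 core in 19.6% and 7.12%, and ACGTG in 27.5% and 26.1%. The 51 include members that were not tested. Among the 48 tested members the shares were 37.5%, 41.7%, 20.8% and 29.2%, in the same order. Over all 27305 promoters in RefSeq's table the shares were 8.05% for the NRF1 core, 10.7% for the ETS core, 6.06% for the YY1 core and 21.6% for ACGTG. Members lower in SMG held the NRF1 core in 8 of 25 promoters and tested members that were not called in 10 of 23. The ETS core stood in 11 of 25 promoters of members lower in SMG and in 9 of 23 of the others. These matches describe the letters only, and those that lie after the start are counted in the shares but not shown.

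Complex II had 4 genes lower in SMG of 8 tested (50%, against 18.5% of all genes tested). Of these, 2 are subunits and 2 assembly factors, and all 8 tested genes had a negative sign in this fit. Both subunits that fell are the membrane anchors that hold the haem and the ubiquinone site, while the catalytic pair did not pass the test. SDHC had 66.5, 72.2 and 67.4 CPM in SMG libraries, against 76.7, 77.0 and 84.7 CPM in NG libraries. Its groups did not overlap, and it fell by 0.21 ± 0.05 on the log2 scale (adjusted p = 0.000782). SDHD, the other anchor, had 16.7, 16.6 and 15.9 CPM in SMG libraries, against 19.0, 18.9 and 22.4 CPM in NG libraries. NG replicate 3 was the highest library for both anchors, and SDHD fell by 0.29 ± 0.07 (adjusted p = 0.00287). The SDHD call was lost with the length and GC trend removed (adjusted p = 0.0523). SDHA, the flavoprotein that oxidises succinate, had 68.6, 78.3 and 73.6 CPM in SMG libraries, against 79.3, 79.0 and 75.8 CPM in NG libraries. These groups overlap, and the log2 fold change was -0.09 (95% interval -0.18 to 0.01, adjusted p = 0.147; without SMG replicate 2 it was -0.13, adjusted p = 0.0466). SDHB, the iron-sulphur subunit, had 24.9, 24.7 and 21.4 CPM in SMG libraries, against 25.7, 27.0 and 24.8 CPM in NG libraries. SMG replicate 3 was the lowest library, and the log2 fold change was -0.13 (95% interval -0.26 to 0.01, adjusted p = 0.132).

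Among the assembly factors of complex II, SDHAF3 and SDHAF1, which help to mature the iron-sulphur subunit, fell, and SDHAF2 and SDHAF4, which act on SDHA, did not pass the test. SDHAF3 had 12.3, 11.9 and 13.2 CPM in SMG libraries, against 16.03, 15.2 and 16.8 CPM in NG libraries. It was lower in every SMG library, by 0.36 ± 0.08 (adjusted p = 0.000801). SDHAF1 had 6.42, 7.90 and 7.23 CPM in SMG libraries, against 8.06, 9.85 and 9.02 CPM in NG libraries. The highest SMG library lay just under the lowest NG library, and SDHAF1 fell by 0.31 ± 0.11 (adjusted p = 0.0216). That call was lost without SMG replicate 1 (adjusted p = 0.125), SMG replicate 3 (0.058) or NG replicate 2 (0.111), and with DESeq2 (0.105). SDHAF4 had 9.44, 10.1 and 8.76 CPM in SMG libraries, against 9.90, 9.55 and 11.8 CPM in NG libraries. Its groups overlapped, with a log2 fold change of -0.14 (adjusted p = 0.291). SDHAF2, which attaches the flavin to SDHA, was at -0.08 (95% interval -0.35 to 0.19), and its sign changed under some alternatives.

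Complex III had 4 genes lower in SMG of 10 tested (40%, against 18.5% of all genes tested), and all 4 are subunits without a redox centre. UQCRC2, a core protein, had 166, 160 and 164 CPM in SMG libraries, against 198, 193 and 183 CPM in NG libraries. The groups did not overlap, and it fell by 0.23 ± 0.04 (adjusted p = 9.04e-06). UQCRH, the hinge protein that helps cytochrome c to dock at cytochrome c1, had 75.8, 77.5 and 76.3 CPM in SMG libraries, against 90.3, 82.8 and 85.9 CPM in NG libraries. The 3 SMG libraries lay close together below all NG libraries, a fall of 0.18 ± 0.04 (adjusted p = 0.00134). UQCR10, a small subunit, had 44.1, 47.8 and 44.4 CPM in SMG libraries, against 50.1, 53.3 and 55.0 CPM in NG libraries. It fell by 0.21 ± 0.05 with no overlap (adjusted p = 0.00158). UQCRB, a subunit that takes part in ubiquinone binding, had 91.1, 87.1 and 82.2 CPM in SMG libraries, against 95.2, 94.4 and 113 CPM in NG libraries. NG replicate 3 stood above the other NG libraries, and UQCRB fell by 0.22 ± 0.07 (adjusted p = 0.0306). This call was lost without SMG replicate 2 (adjusted p = 0.0754) or SMG replicate 3 (0.0760).

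The subunits of complex III that carry electrons did not pass the test in this fit. With the length and GC trend removed, CYC1 was lower (-0.19, adjusted p = 0.00186) and UQCRB was not called (adjusted p = 0.0522). Whether subunits with and without a redox centre differ was not tested. CYC1, cytochrome c1, had 44.2, 45.7 and 44.975 CPM in SMG libraries, against 49.6, 47.3 and 43.4 CPM in NG libraries. One NG library lay below all SMG libraries, and the log2 fold change was -0.06 (95% interval -0.17 to 0.05, adjusted p = 0.401). UQCRFS1, the Rieske iron-sulphur protein, was at -0.05 (95% interval -0.15 to 0.05). UQCRC1, the other core protein, was at -0.11 (adjusted p = 0.140), with NG replicate 3 below the other NG libraries; without that library it was at -0.18 (adjusted p = 0.000138). The small subunits UQCRQ and UQCR11 were at -0.02 and 0.11 (adjusted p = 0.854 and 0.357).

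Cytochrome c carries electrons from complex III to complex IV and, once released into the cytosol, takes part in the apoptosome. CYCS had 178, 172 and 176 CPM in SMG libraries, against 182, 177 and 222 CPM in NG libraries. The groups overlap, and NG replicate 3 stood far above every other library. The log2 fold change was -0.14 ± 0.09 (95% interval -0.38 to 0.10, adjusted p = 0.320), and without NG replicate 3 it was -0.03. Among its partners, APAF1, the apoptosome scaffold, CASP9, the protease it activates, and HCCS, which attaches haem to cytochrome c, did not pass the test (0.06, 0.01 and -0.03).

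Complex IV had 11 genes lower in SMG of 21 tested (52.4%, against 18.5% of all genes tested). They were made up of 8 of 11 subunits and 3 of 10 factors, and all 21 tested genes had a negative sign in this fit. COX7C, a small subunit of the membrane part, had 131, 143 and 141 CPM in SMG libraries, against 170, 179 and 184 CPM in NG libraries. The highest SMG library was well below the lowest NG library, and COX7C had the lowest adjusted p of all members, with a fall of 0.36 ± 0.04 (adjusted p = 3.29e-08). COX7B, another small membrane subunit, had 58.3, 54.8 and 54.4 CPM in SMG libraries, against 64.0, 66.5 and 66.8 CPM in NG libraries. The groups were apart, with a fall of 0.24 ± 0.05 (adjusted p = 0.000179). COX6B1, a subunit on the side that faces the intermembrane space, had 59.9, 57.3 and 59.3 CPM in SMG libraries, against 67.4, 67.0 and 70.0 CPM in NG libraries. It fell by 0.21 ± 0.04, with no overlap (adjusted p = 0.000385). COX6C had 56.8, 59.6 and 58.5 CPM in SMG libraries, against 66.2, 68.9 and 66.5 CPM in NG libraries. It too was lower in every SMG library, by 0.20 ± 0.04 (adjusted p = 0.000597).

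COX4I1 encodes the common isoform of subunit 4, the largest nuclear-encoded subunit of complex IV, which binds ATP and ADP as regulators. It had 156, 166 and 163 CPM in SMG libraries, against 176, 184 and 178 CPM in NG libraries. The SMG libraries were all below the NG libraries, and COX4I1 fell by 0.15 ± 0.04 (adjusted p = 0.00137). COX4I2 encodes the other isoform, known to be induced by low oxygen and to be abundant in lung. Its counts were 0, 0 and 0 in SMG libraries and 2, 2 and 0 in NG libraries. No library exceeded a floor of 3 counts, so COX4I2 was not detectable in either group at this depth and no fold is given. The tissue-restricted isoforms COX6A2, COX7A1, COX7B2 and COX8C were also too low to test, at no more than 8 counts in any library. COX6B2, the isoform known from testis, passed the filter with 4 to 14 counts in SMG libraries and 4 to 11 in NG libraries, and its interval of -1.08 to 0.71 allows a change either way. Per kilobase of principal transcript, COX6B2 stood at 0.193 CPM in SMG and 0.221 CPM in NG, while COX6B1 stood at 88.2 CPM in SMG and 102 CPM in NG.

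The other subunits lower in SMG were COX7A2 (-0.20), COX5B (-0.18) and COX6A1 (-0.20). COX7A2, the common subunit 7A, was at 59.7 to 62.9 CPM in SMG libraries and at 70.0 to 71.4 CPM in NG libraries. COX5B, which binds zinc, was at 30.9 to 32.5 CPM in SMG libraries and at 34.6 to 37.1 CPM in NG libraries, and lost its call without SMG replicate 2 (adjusted p = 0.052) and with DESeq2 (0.051). COX6A1, the common subunit 6A, had overlapping groups of 23.9 to 26.6 CPM in SMG libraries and 26.5 to 33.1 CPM in NG libraries. Its call was lost without SMG replicate 1 (adjusted p = 0.121), SMG replicate 3 (0.0738) or NG replicate 3 (-0.11, adjusted p = 0.196), and with DESeq2 (0.0786). COX5A and COX8A did not pass the test, at -0.09 (adjusted p = 0.143) and -0.10 (adjusted p = 0.240).

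Of the 10 factors of complex IV, COX17, COX16 and COX7A2L fell. COX17, the copper chaperone that supplies the copper sites, had 9.96, 10.4 and 11.4 CPM in SMG libraries, against 14.05, 13.5 and 13.8 CPM in NG libraries. The groups were clearly apart, and COX17 fell by 0.38 ± 0.08 (adjusted p = 0.000854). COX7A2L, which joins complexes III and IV into supercomplexes, had 119, 121 and 117 CPM in SMG libraries, against 131, 143 and 130 CPM in NG libraries. It fell by 0.18 ± 0.04 without overlap (adjusted p = 0.000655). COX16, an assembly factor of subunit 2, had 11.4, 13.97 and 12.1 CPM in SMG libraries, against 14.002, 14.5 and 15.9 CPM in NG libraries. The highest SMG library lay only just below the lowest NG library, and the fall was 0.24 ± 0.09 (adjusted p = 0.0316). The COX16 call was lost without SMG replicate 1 (adjusted p = 0.161), SMG replicate 3 (0.110) or NG replicate 3 (0.112), and with DESeq2 (0.117). COX10 and COX15, which make haem A, were at -0.02 and -0.05, and COX11 and COX19, which serve copper delivery, were at -0.06 and -0.07, with no call. COX14, COX18 and COX20, which look after newly made subunits, were at -0.17, -0.15 and -0.02, with no call; COX18, which inserts subunit 2 into the membrane, was called without SMG replicate 1 (-0.22, adjusted p = 0.0159).

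Complex V had 11 genes lower in SMG of 18 tested (61.1%, against 18.5% of all genes tested). All 11 are among its 17 subunits. In this fit each module of the enzyme held some of them. Lower were 4 of 5 in the F1 head and rotor, 2 of 4 in the peripheral stalk, 2 of 3 genes of the c ring and 3 of 5 small membrane subunits. The modules are small, and whether their shares differ was not tested. With the length and GC trend removed, 7 genes of the complex were lower, against 16.7% of all genes tested that way. By module these were 3 of 5, 0 of 4, 2 of 3 and 2 of 5, in the same order, so the peripheral stalk had 0. ATP5F1A, the alpha subunit of the head, had 506, 490 and 477 CPM in SMG libraries, against 583, 581 and 543 CPM in NG libraries. Its groups did not overlap, and it fell by 0.21 ± 0.03 (adjusted p = 1.53e-05). ATP5F1C, the gamma shaft that turns inside the head, had 113, 116 and 106 CPM in SMG libraries, against 132, 130 and 140 CPM in NG libraries. It fell by 0.26 ± 0.04 with no overlap (adjusted p = 7.50e-06). ATP5F1B, the catalytic beta subunit, was at 583 to 593 CPM in SMG libraries and at 633 to 650 CPM in NG libraries. Its fall of 0.12 ± 0.03 was the smallest among the 30 called members (adjusted p = 0.00286). ATP5F1E, the epsilon subunit, was at -0.14 (adjusted p = 0.0106) and lost its call without SMG replicate 1 (adjusted p = 0.0930) or SMG replicate 3 (0.0505). ATP5F1D, the delta subunit, had 15.8, 18.6 and 14.5 CPM in SMG libraries, against 13.7, 16.3 and 13.9 CPM in NG libraries. It was the member with the highest fold change, 0.16 with a 95% interval of -0.02 to 0.35 (adjusted p = 0.170), and its groups overlapped.

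The c ring is the rotor in the membrane, and its identical subunit is encoded by ATP5MC1, ATP5MC2 and ATP5MC3, which differ mainly in the peptide that targets it to mitochondria. ATP5MC2 had 143, 137 and 128 CPM in SMG libraries, against 155, 158 and 163 CPM in NG libraries. ATP5MC3 had 93.7, 104 and 99.2 CPM in SMG libraries, against 117, 120 and 118 CPM in NG libraries. Both were lower in every SMG library, ATP5MC2 by 0.22 ± 0.04 (adjusted p = 4.96e-05) and ATP5MC3 by 0.26 ± 0.04 (adjusted p = 9.11e-06). ATP5MC1 had 22.3, 21.1 and 21.9 CPM in SMG libraries, against 23.2, 23.2 and 23.5 CPM in NG libraries. It too was lower in every SMG library, but at -0.10 it did not pass the test (95% interval -0.23 to 0.03, adjusted p = 0.226).

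In the peripheral stalk, which holds the head still, ATP5PB (subunit b) and ATP5PD (subunit d) fell by 0.15 and 0.23 (adjusted p = 0.00124 and 0.00964). ATP5PD lost its call without SMG replicate 2 (adjusted p = 0.0514). ATP5PF (subunit F6) and ATP5PO (OSCP, which joins the stalk to the head) were at -0.08 each, with no call; without NG replicate 3, ATP5PO was at -0.11 (adjusted p = 0.0263). Of the small membrane subunits, which help complex V to form dimers, ATP5MJ, ATP5MK and ATP5MG fell by 0.28, 0.24 and 0.19 (adjusted p = 0.000278, 0.00650 and 0.000720). ATP5MK lost its call without SMG replicate 3 (adjusted p = 0.0558). ATP5ME and ATP5MF were at -0.20 and 0.02 with no call. ATP5IF1, the inhibitor that blocks ATP hydrolysis when the proton gradient fails, had 49.0, 51.5 and 44.8 CPM in SMG libraries, against 46.9, 49.3 and 53.6 CPM in NG libraries. These overlap, and its log2 fold change was -0.04 (95% interval -0.16 to 0.08). ATP5MGL and the readthrough gene ATP5MF-PTCD1 had at most 4 counts in any library and were not tested.

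**Figure D2:**
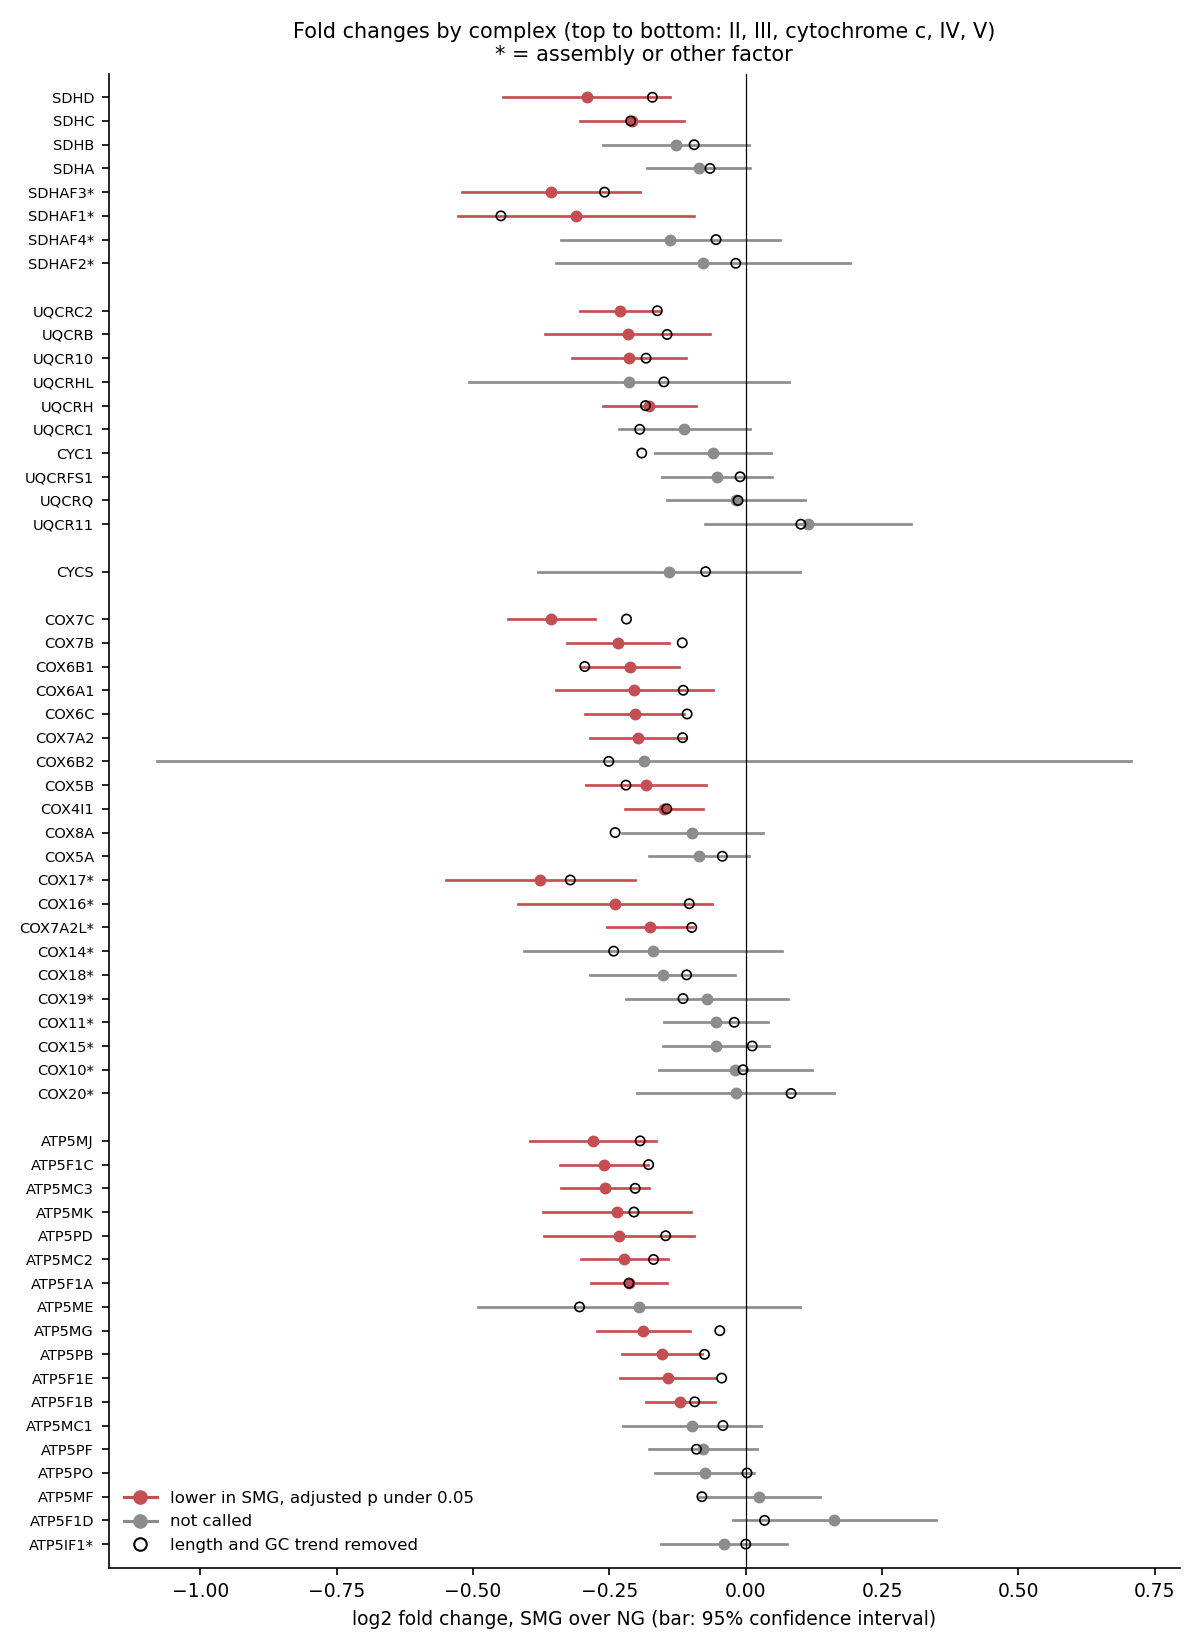
Log2 fold change, SMG over NG, of the 58 tested genes by complex. Filled points with bars are the estimate and its 95% confidence interval from edgeR (red, lower in SMG at an adjusted p under 0.05; grey, not called), and open points are the estimate after removal of the trend with length and GC content. All filled points except those of UQCR11, ATP5F1D and ATP5MF lie below 0, and 30 are red.

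Ratios between related isoforms were compared within libraries. Of 9 isoform pairs, 5 had both genes above the filter on low counts. The log2 ratio of ATP5MC1 to ATP5MC3 was higher in SMG by 0.16, in all 3 SMG libraries, with an exact two-sided permutation p of 0.1, which is the smallest that 3 against 3 libraries allow (0.5 adjusted over the 5 pairs). For ATP5MC2 to ATP5MC3 the difference was 0.04, for COX7A2L to COX7A2 it was 0.02, for COX6B2 to COX6B1 it was -0.03 and for UQCRHL to UQCRH it was -0.04, with exact permutation p-values of 0.6 to 1. UQCRHL, an intronless relative of the hinge protein gene, stood at 1.46 CPM per kilobase in SMG and 1.69 CPM in NG, while UQCRH stood at 127 CPM per kilobase in SMG and 143 CPM in NG.

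Summed over its subunits, each complex was lower in SMG, by 10.4% to 13.7%; whether the complexes differ in this was not tested. The 4 subunits of complex II summed to 182 ± 8.33 CPM in SMG and 203 ± 3.72 CPM in NG (SD, n = 3 each), a change of -10.4%. The 10 subunits of complex III summed to 623 ± 9.51 CPM in SMG and 695 ± 12.4 CPM in NG, a change of -10.4%. The 11 tested subunits of complex IV summed to 686 ± 9.73 CPM in SMG and 795 ± 16.2 CPM in NG, a change of -13.7%. The 17 subunits of complex V summed to 2042 ± 38.8 CPM in SMG and 2298 ± 21.1 CPM in NG, a change of -11.2%. In each complex all SMG sums lay below all NG sums.

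Of the 6 subunits of complexes III to V that the mitochondrial genome encodes, 3 were higher in SMG and 0 lower. These shares are 50% and 0%, against 17.3% higher and 18.5% lower among all genes tested. The sum was 19060 ± 1342 CPM in SMG and 16906 ± 907 CPM in NG, a change of 12.7%. MT-CYB, cytochrome b of complex III, had 1184, 1571 and 1442 CPM in SMG libraries, against 838, 959 and 1017 CPM in NG libraries. It was higher in every SMG library, by 0.58 ± 0.14 (adjusted p = 0.0411). MT-CO3 of complex IV was higher by 0.21 ± 0.05 (adjusted p = 0.00379) and MT-CO1, its catalytic subunit, by 0.12 ± 0.04 (adjusted p = 0.0256). The MT-CO1 groups overlapped, with SMG replicate 3 at 10588 CPM and NG replicate 3 at 10681 CPM. MT-CO2, MT-ATP6 and MT-ATP8 were at 0.14, 0.24 and 0.28 with no call. SMG replicate 2 had the highest sum of mitochondrial-genome subunits and NG replicate 3 the highest among NG libraries, so the groups overlapped narrowly, at 17927 CPM for SMG replicate 1 and 17942 CPM for NG replicate 3.

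**Figure D3:**
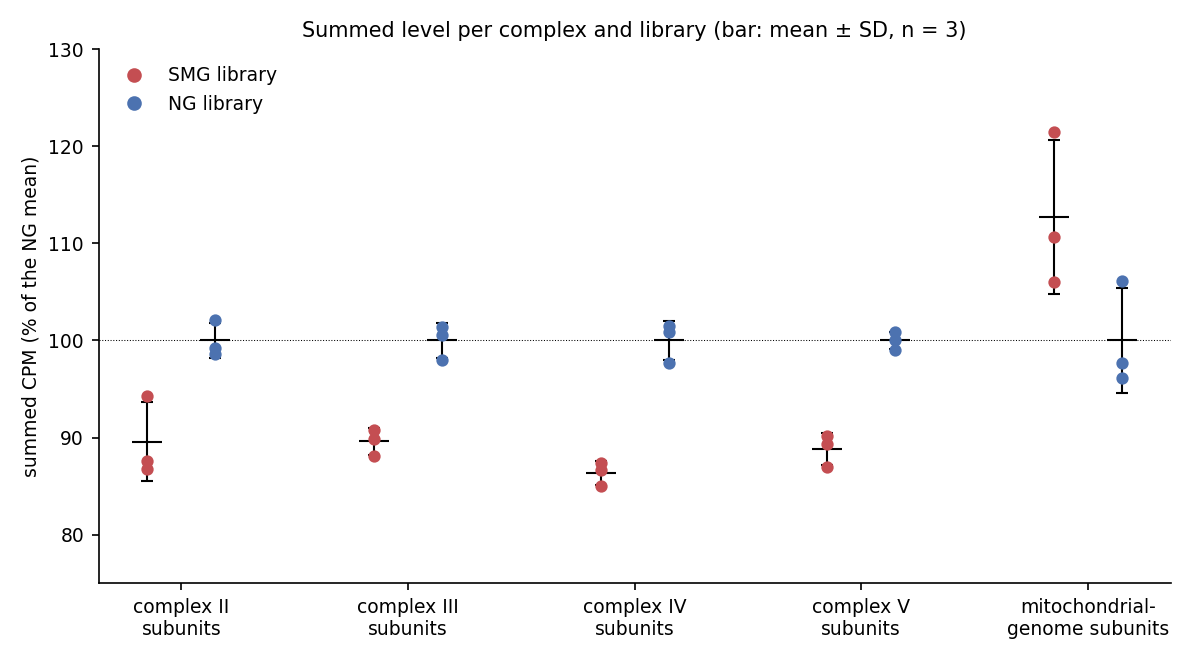
Summed CPM of the nuclear-encoded subunits of each complex, and of the 6 subunits of complexes III to V encoded in the mitochondrial genome, as a percentage of the mean of the 3 NG libraries. Points are libraries, SMG (red) left of NG (blue), and bars are the mean ± SD (n = 3). The nuclear sums are 10.4% to 13.7% lower in SMG and the mitochondrial-genome sum is 12.7% higher with overlapping groups.

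Many members have short transcripts, and fold changes moved with transcript length across the whole data set. Among protein-coding genes tested, 29.8% were lower in SMG when the longest transcript was under 1 kb, 25.5% at 1 to 2 kb, 21.5% at 2 to 4 kb and 21.2% at 4 kb or more, with median log2 fold changes of -0.13, -0.07, -0.02 and 0.01. Of the members, 8 of 13 under 1 kb were lower, 10 of 19 at 1 to 2 kb, 8 of 20 at 2 to 4 kb and 4 of 6 at 4 kb or more, with medians of -0.20, -0.14, -0.12 and -0.21. The member medians were thus below those of protein-coding genes in each class. When the trend of each library with length and GC content was removed, 25 members were lower (against 16.7% of the 17193 genes tested that way) and 0 higher (against 14.9%), and the median was -0.12. Of the 30 called members, 22 kept their call. SDHD (adjusted p = 0.0523), UQCRB (0.0522), COX6A1 (0.170), COX16 (0.359), ATP5F1E (0.452), ATP5PB (0.0612), ATP5PD (0.0949) and ATP5MG (0.507) lost theirs. UQCRC1 (-0.19, adjusted p = 0.000676), CYC1 (-0.19, adjusted p = 0.00186) and COX8A (-0.24, adjusted p = 0.00199) became lower. The fall of COX7C shrank to 0.22, that of COX7B to 0.12, that of COX7A2 to 0.12, that of COX6C to 0.11 and that of COX7A2L to 0.10, while that of COX6B1 grew to 0.30 and that of SDHAF1 to 0.45. Under 1 kb, the median of protein-coding genes moved from -0.13 to -0.16 with this removal, and that of the members from -0.196 to -0.205. Of the 292 protein-coding genes in this class, 87 were lower before the removal and 102 after it. The removal thus did not level the shortest class but lowered its medians further. Nor did it level the class of 1 to 2 kb, where the median of protein-coding genes was -0.065 before and -0.068 after. The median of members in that class moved from -0.14 to -0.10.

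**Figure D4:**
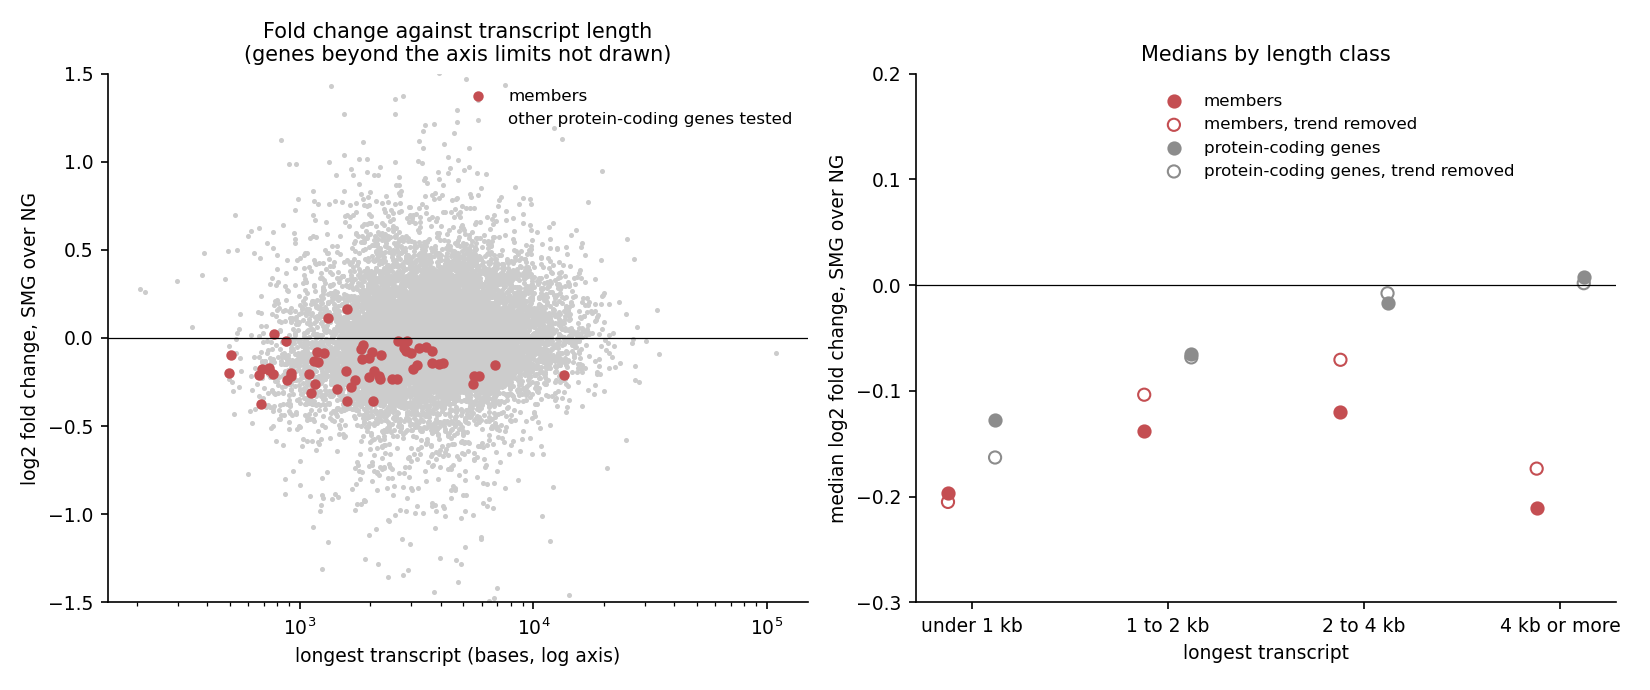
Left, log2 fold change (SMG over NG) of each protein-coding gene tested against the length of its longest transcript in bases on a log axis, with the members in red and other genes in grey. Right, median log2 fold change by length class for the members (red) and all protein-coding genes tested (grey), before (filled) and after (open) the trend with length and GC content was removed. The filled red medians, -0.20, -0.14, -0.12 and -0.21, lie below the grey ones in each class.

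Reads from several members can be shared with other genes. The annotation holds 175 pseudogenes of these genes, of which 12 could be tested. Of these 12, 2 were higher in SMG, beside 17.3% of all genes tested, and 0 were lower, beside 18.5%. Those higher were the SDHA relatives SDHAP3 and SDHAP4. SDHAP3 lost its call with the length and GC trend removed (adjusted p = 0.245). Over all members, pseudogene counts came to 2.35% to 2.48% of the members' counts in SMG libraries and 1.91% to 2.00% in NG libraries, but nearly all of them lay in copies of SDHA. SDHAP1, SDHAP3 and SDHAP4 together had 1819, 1894 and 2003 counts in SMG libraries, against 1652, 1295 and 1264 counts in NG libraries. SDHA itself had 1454, 1744 and 1680 counts in SMG libraries, against 1683, 1283 and 1243 counts in NG libraries. The copies summed to 86.2 ± 1.37 CPM in SMG and 78.2 ± 1.39 CPM in NG, and SDHA with its copies to 160 ± 4.64 CPM in SMG and 156 ± 3.10 CPM in NG (SD, n = 3 each). The value of SDHA is therefore uncertain, since reads of the gene and of its copies may have been split. The pseudogenes of all other members summed to 13.2 ± 0.165 CPM in SMG and 13.1 ± 1.24 CPM in NG. All tested members summed to 4131 ± 58.7 CPM in SMG and 4646 ± 31.2 CPM in NG.

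Exons of 28 of the 58 tested members overlap another gene by 100 bases or more. Of these 28, 13 were lower in SMG, beside 30 of all 58 tested members and 18.5% of all genes tested. On the opposite strand these are SDHC, UQCRFS1, UQCRB, UQCRQ, COX11, COX20, ATP5F1E, ATP5PB, ATP5PD, ATP5PF, ATP5PO, ATP5MC3, ATP5ME and ATP5MG. On the same strand they are SDHD, SDHAF2, UQCR11, COX6A1, COX6B2, COX8A, COX14, COX15, COX16, COX17, COX19, ATP5PO, ATP5MC2, ATP5MF, ATP5MG and ATP5MK. The labels do not say whether strand was used in counting, so the values of these genes are less certain.

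Genes around these complexes were described from lists chosen by function, and their counts stand beside the 18.5% lower and 17.3% higher among all genes tested. Complex III assembly genes had 4 lower (44.4%) and 1 higher (11.1%) of 9, among them UQCC2, needed to make cytochrome b (-0.24, adjusted p = 0.00204), and BCS1L, which inserts the Rieske protein and was higher (0.17, adjusted p = 0.0263). Other complex IV assembly genes and regulators had 7 lower (31.8%) and 3 higher (13.6%) of 22. LRPPRC, which stabilises mitochondrial mRNAs, fell by 0.18 (adjusted p = 9.31e-05), OXA1L, which inserts mitochondrially made proteins, by 0.19 (adjusted p = 0.000496) and NDUFA4, a subunit of complex IV despite its name, by 0.19 (adjusted p = 0.000431; -0.06, adjusted p = 0.166, with the length and GC trend removed). NDUFA4L2, its hypoxia-inducible relative, was higher by 0.76 ± 0.25 (adjusted p = 0.0192), at 2.12, 1.26 and 2.10 CPM in SMG libraries, against 1.08, 1.42 and 0.731 CPM in NG libraries, so its groups overlapped, and its call was lost with the trend removed (adjusted p = 0.0591). The complex IV assembly genes COA7 and COA8 were also higher, by 0.20 and 0.28 (adjusted p = 0.0469 and 0.0295). For both, every SMG library lay above every NG library, and the calls stayed with the trend removed (adjusted p = 0.0226 and 0.0128). Complex V assembly genes had 0 called of 4. Enzymes of the citric acid cycle, which feeds complex II and the rest of the chain, had 5 lower (41.7%) and 1 higher (8.33%) of 12. SUCLG2, a subunit of the enzyme that makes succinate, had 15.6, 14.7 and 15.5 CPM in SMG libraries, against 22.2, 20.7 and 22.5 CPM in NG libraries, a fall of 0.51 ± 0.07 (adjusted p = 1.34e-06). OGDH, which acts one step earlier, was higher by 0.32 ± 0.05 (adjusted p = 7.95e-06).

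Of 14 regulators, 3 were lower and 3 higher in SMG, 21.4% each, which is near the 18.5% and 17.3% of all genes tested. NRF1 had 28.3, 28.5 and 28.99 CPM in SMG libraries, against 30.0, 29.3 and 27.7 CPM in NG libraries. The groups overlap, and its log2 fold change was -0.02 (95% interval -0.14 to 0.09). GABPA fell by 0.15 ± 0.04 (adjusted p = 0.00423), though after the trend with length and GC content was removed it was at -0.07 (adjusted p = 0.111), and it overlaps ATP5PF on the opposite strand. YY1 was higher by 0.10 ± 0.03 (adjusted p = 0.0272), and at 0.07 it lost its call with that trend removed (adjusted p = 0.0783). PPRC1 and ESRRA, a coactivator and a nuclear receptor that drive genes for respiration, were higher by 0.43 ± 0.05 and 0.46 ± 0.07 (adjusted p = 2.62e-07 and 1.20e-05). The coactivator PPARGC1A was at -0.23 (adjusted p = 0.127). HIF1A was at 0.03 (adjusted p = 0.512) and, with that trend removed, higher by 0.12 (adjusted p = 0.00140). EPAS1, the other oxygen-regulated factor of this kind, had 7, 8 and 1 counts in SMG libraries, against 31, 28 and 18 counts in NG libraries (-2.54 ± 0.38, adjusted p = 6.18e-06).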

How the data were processed

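Bulk RNA was sequenced from H9-derived motor neurons in 2 groups of 3 libraries, SMG and NG, and groups were taken from the labels. The deposited table holds the authors' raw counts per Ensembl gene. Per the submitters' processing notes, the tools were HISAT2, SAMtools, featureCounts and DESeq2, on hg19. Tool versions, the annotation, strand use and the handling of multi-mapping reads were not given in the sources used here.

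A current symbol was found for 51996 genes in a gene name table, and for 52338 with GENCODE 29, which is on another build than hg19 and gave only names, types, overlaps, lengths and GC content. Genes were filtered with edgeR's filterByExpr, scaled by TMM and tested with edgeR's quasi-likelihood test (robust), with Benjamini-Hochberg adjustment over 17803 genes and a threshold of 0.05. At the depths reached, edgeR's measure of spread between libraries, named the biological coefficient of variation, was 0.0346. Within a group, libraries differed beyond sampling noise (chi-square divided by its degrees of freedom, 1.59 to 3.37). Each library was counted as 1 sample, though this spread does not show that libraries came from separate cultures. The trend with longest-transcript length and GC content was fitted per library as natural splines with 5 degrees of freedom and entered as offsets.

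Values in every library are given for COX4I1, COX4I2, CYC1 and CYCS, for up to 4 subunits and 3 factors per complex with the lowest adjusted p, and for any member that rose or had an absolute log2 fold change of 0.5 or more. Others named outside that rule were chosen after their values were seen. The members, lists and promoter motifs were chosen with earlier results of these data known. One gene of the lists is not reported here. Promoters came from RefSeq, GRCh38.p14. The tests were first run on simulated data. Alternatives were DESeq2, limma-voom, 3 other scalings, 2 other filters, no robust estimation, a replicate block, protein-coding genes alone, the trend removal with and without the block, and each library left out in turn. Versions were 4.0.16 for edgeR, 3.58.1 for limma, 1.42.0 for DESeq2 and 4.3.3 for R.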

Additional observations from a re-analysis of the deposited data

How the results depend on the processing

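Over 18 alternatives the number of members lower in SMG ran from 24 to 31, and the number higher was 0 under each. DESeq2 gave 26, no filter on low counts 31, and the fit with length and GC trend removed 25. Leaving out 1 library gave 24 (without SMG replicate 3) to 30, and 22 of the 30 members were called lower in every one of these fits; 19 were called under all 18 alternatives, and 7 further members were called lower under at least 1. CYCS was called only with no filter on low counts (adjusted p = 0.00735). All genes called ran from 4389 (DESeq2) to 6385, and scaling by library size alone gave 2804 lower and 3440 higher, against 3296 and 3080. With the replicate number as a replicate block 30 members and 6333 genes were called; UQCRB lost its call (adjusted p = 0.0671) and UQCRC1 gained one (0.0313), and no other member changed its call under the block alone. Libraries with the same number did not deviate together (correlations -0.00406, 0.0178 and -0.0281), so the numbers were not treated as pairs.

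No called member changed sign, but 9 of the others did under at least 1 alternative: SDHAF2 (up to 0.11), COX20 (up to 0.08), COX6B2 (up to 0.14), COX10 (up to 0.02), COX15 (up to 0.01), UQCRQ (up to 0.0069), ATP5PO (up to 0.0033), ATP5MF (down to -0.08) and ATP5IF1. ATP5IF1 changed sign to 7.39e-05 with the length and GC trend removed, to 0.0116 without SMG replicate 3 and to 0.0148 without NG replicate 3; over the fits that left out 1 library it ran from -0.0875 to 0.0148. The isoform difference for COX6B2 to COX6B1 changed sign to 0.446 without SMG replicate 1, 0.115 without NG replicate 1 and 0.243 without NG replicate 2, within a leave-one-out range of -0.457 to 0.446. Without SMG replicate 1 the difference for UQCRHL to UQCRH was 0.0411 (range -0.0962 to 0.0411) and that for ATP5MC2 to ATP5MC3 -0.0405 (range -0.0405 to 0.0820). The cause was not tested.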

Other observations

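CHCHD2, a mitochondrial protein known to bind complex IV and to regulate COX4I2, and FDX2, a ferredoxin needed for iron-sulphur clusters and haem A, were on the complex IV list but could not be tested. CHCHD2 was counted at 0.0472, 0.225 and 0.0438 CPM in SMG libraries, against 0.0943, 0.0616 and 0.183 CPM in NG libraries. FDX2 did not exceed 0.141 CPM in any library. The labels do not say how reads shared with other loci were counted, and their part in these low values was not tested.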
